A study of Mus musculus with 9 samples.

Results

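The 10 genes described here encode the colony-stimulating factors and their receptors. They are Csf1, Csf2 and Csf3 for the secreted factors, and Csf1r, Csf3r, Csf2ra, Csf2rb, Csf2rb2, Il3ra and Kit for receptor chains. They were chosen by gene symbol from the 18193 genes that had a probe set of their own on the array, and 19 probe sets named them. For each gene the probe set with the highest mean over all 9 arrays stands for the gene, and the others were used as a check. RNA was hybridised to Affymetrix MOE430 arrays from splenocytes of C57BL/6 mice that had adhered and been selected magnetically for the integrin CD11b. The HighThreat group comprised 6 animals under repeated social threat, 1 array per animal, called threat animals below. The LowThreat group comprised 6 animals under non-threatening conditions, hybridised as 3 pools of 2 animals and called control pools below. The strain and the cell selection were common to both groups, and no ages were given in the sources used here. A control pool averages 2 animals where a threat array shows 1, which limits a comparison of the spread. Itgam, which encodes CD11b itself, averaged 8.50 ± 0.07 in threat animals and 7.93 ± 0.03 in control pools (log2, SD, n = 6 and 3). The transcript of the selection antigen thus itself differed, by 0.57 (adjusted p = 1.67e-06 in limma), with no overlap of the groups. The arrays read RNA, and the CD11b protein on which cells were selected was not measured.

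Colony-stimulating factors direct the formation and survival of blood phagocytes. CSF1, also called M-CSF, acts through the receptor tyrosine kinase CSF1R and maintains monocytes and macrophages. CSF3, or G-CSF, acts through CSF3R and drives the formation and release of neutrophils. CSF2, or GM-CSF, binds an alpha chain, CSF2RA, which pairs with the common beta chain encoded by Csf2rb. The interleukin-3 receptor pairs its own alpha chain, IL3RA, with a beta chain, and mice carry a second beta chain, encoded by Csf2rb2, that serves interleukin-3 alone. KIT, the receptor of stem cell factor, is a relative of CSF1R found on blood progenitors and mast cells. The cytokine receptors signal through JAK kinases and STAT transcription factors, which induce feedback inhibitors of the SOCS family.

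Promoter sequence was available from RefSeq (GRCm38.p6) for 7 of the 10 genes. It is shown for 3 of them, in the 250 bases before the annotated start: Csf1, whose transcript was lower in threat animals, Csf3r, whose transcript was higher, and Csf2ra, whose transcript varied most between arrays of 1 group. Capitals mark 3 motifs searched on both strands: GAGGAA, an ETS core with the flank that the myeloid factor PU.1 prefers, GCAAT, part of the site of C/EBP factors, and TGACGTCA, the cAMP response element.
Csf1, chr3:107760470-107760719, minus strand: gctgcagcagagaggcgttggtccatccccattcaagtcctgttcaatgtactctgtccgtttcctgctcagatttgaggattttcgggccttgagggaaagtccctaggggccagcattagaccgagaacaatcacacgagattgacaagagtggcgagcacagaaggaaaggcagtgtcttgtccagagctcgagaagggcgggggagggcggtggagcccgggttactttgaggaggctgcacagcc
Csf3r, chr4:126024409-126024658, plus strand: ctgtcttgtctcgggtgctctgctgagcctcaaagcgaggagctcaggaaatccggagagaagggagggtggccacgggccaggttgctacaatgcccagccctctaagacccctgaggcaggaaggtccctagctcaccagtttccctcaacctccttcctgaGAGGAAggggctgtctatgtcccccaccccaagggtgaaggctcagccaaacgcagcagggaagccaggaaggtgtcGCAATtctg
Csf2ra, chr19:61228419-61228668, minus strand: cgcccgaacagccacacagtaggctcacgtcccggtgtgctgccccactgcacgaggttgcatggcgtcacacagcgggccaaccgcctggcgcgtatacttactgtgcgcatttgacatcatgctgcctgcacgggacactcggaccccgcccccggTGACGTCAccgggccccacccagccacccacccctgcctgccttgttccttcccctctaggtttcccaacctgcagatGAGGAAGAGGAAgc
The Csf1 window held none of these letters. The Csf3r window held GAGGAA beginning 86 bases before the start and GCAAT beginning 9 bases before it, and it lies downstream of the first annotated start of the gene. The Csf2ra window held adjacent copies of GAGGAA that begin 14 and 8 bases before the start, and TGACGTCA beginning 92 bases before it. Of 32851 mouse promoter windows of the same length, 23.3% held GAGGAA, 23.1% held GCAAT and 1.55% held TGACGTCA. Of the 7 members with a window, 4 held GAGGAA, 4 held GCAAT and 1 held TGACGTCA. Such a match describes the letters and was not tested as a binding site.

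The members split by direction in threat animals. Transcripts of the neutrophil factor Csf3 and its receptor Csf3r, of Csf1r and of Il3ra were higher, those of the macrophage factor Csf1 and of Kit were lower, and Csf2, Csf2ra, Csf2rb and Csf2rb2 did not pass the test. All 10 members passed the filter on dim genes, Csf2 by only 0.036 on the log2 scale. The 4 that rose are to be read against 23.8% of all 13078 tested genes, and the 2 that fell against 22.0%. With either direction, 6 of 10 members and 45.8% of all tested genes passed at a Benjamini-Hochberg adjusted p under 0.05 in limma, and with so few members the shares are not far apart. The median difference of the members was 0.11, against 0.03 for all tested genes. The values of the groups did not overlap in 5 of the 10 members, against 41.8% of all tested genes. Of these, 3 were higher in every threat animal (21.5% of all tested genes) and 2 were lower (20.3%). Of the 19 probe sets, each tested on its own among 27022, 7 rose and 6 fell, against 18.9% and 20.9% of all probe sets and 39.8% in either direction.

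**Figure D1:**
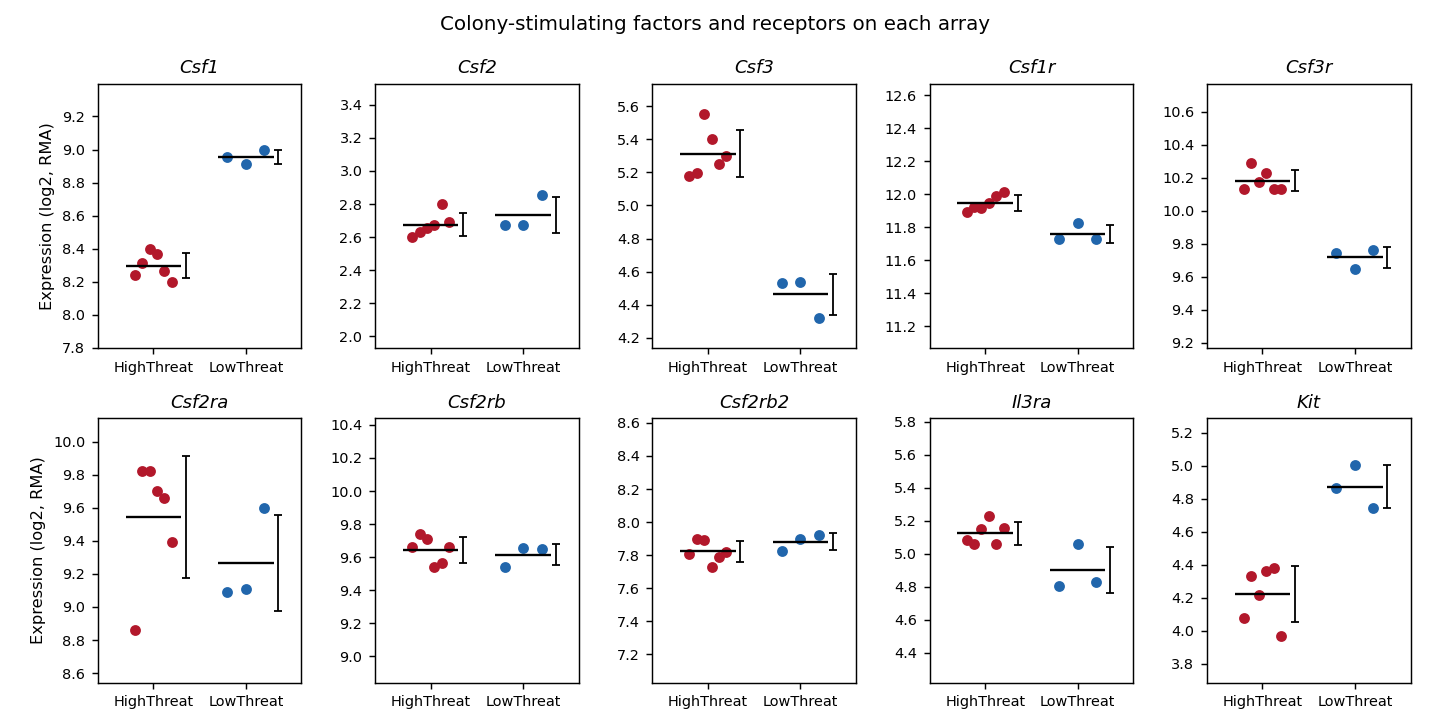
Expression (log2, RMA) of the 10 members on every array, with 6 threat animals left of 3 control pools in each panel. Lines are group means, bars beside them are SDs, and all panels span the same number of log2 units. Csf1 and Kit lie wholly lower and Csf3, Csf3r and Csf1r wholly higher in threat animals, while Csf2ra spreads widely within both groups.

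Csf3 showed the largest difference of the 10 members. Its values in threat animals had a minimum of 5.18, a median of 5.28 and a maximum of 5.56, against 4.53, 4.54 and 4.32 in control pools 1-2, 3-4 and 5-6 (log2). Every threat animal lay above every control pool. Csf3 rose by 0.85 (SE 0.084, adjusted p = 3.72e-06), a 1.81-fold difference, between means of 5.31 ± 0.14 in threat animals and 4.46 ± 0.12 in control pools (SD, n = 6 and 3). Within threat animals Csf3 was highest in animal 3 and lowest in animal 1. A single probe set named it, so no other one could check it.

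Csf1 moved the other way. Threat animals had values between 8.20 and 8.40 with a median of 8.29, against 8.953, 8.915 and 8.997 in control pools 1-2, 3-4 and 5-6. The groups were far apart relative to their spread, with SDs of 0.077 in threat animals and 0.041 in control pools. Csf1 fell by 0.66 (SE 0.054, adjusted p = 7.58e-07), a 1.58-fold difference. All 4 Csf1 probe sets were lower in every threat animal than in any control pool. The size depended on the probe set, with differences of -1.16 (SE 0.0565), -0.38 (SE 0.0577) and -0.65 (SE 0.0901) for the others in falling order of brightness, when each probe set was tested on its own. The probe set with the largest difference and the one that stands for the gene were designed from the same transcript record. The transcript of Csf1 is known to be spliced into several forms, and which form each probe set reads was not examined. In the same arrays 9 of 10 tested dendritic cell markers fell, as did 10 of 11 B cell markers and 8 of 9 natural killer cell markers, and none of these lists had a gene that rose. Among them were Ccr7 (-1.89) and Cd209a (-2.16) of dendritic cells and Cd79a (-2.31) and Fcer2a (-1.85) of B cells. Klra8 (-3.58) and Klrd1 (-1.52) were among those of natural killer cells. Klra8 averaged 1.84 in threat animals and 5.42 in control pools. Tbx21, also among the natural killer cell markers that fell, averaged 2.19 in threat animals and 4.00 in control pools. Both threat means lay under the filter value for dim genes, so the sizes of these differences are limited by background. These 2 genes passed the filter only through the control pools, where they were high. Their place among the 8 of 9 that fell thus follows in part from the filter and adds no support to that count. The mean of the B cell markers per array was 4.70 to 5.10 in threat animals and 6.74 to 6.95 in control pools. Not every list went down with Csf1. Of 6 tested T cell markers 3 fell, among them Cd3d (-0.87) and Cd5 (-0.96), and 0 rose, against 22.0% and 23.8% of all tested genes. Most markers of mature neutrophils (9 of 11) and of Ly6C-high monocytes (5 of 7) rose. The part of any of these cells in the difference of Csf1 was not tested.

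Csf2 was at the limit of measurement. Its values were 2.60 to 2.80 with a median of 2.66 in threat animals, and 2.67, 2.67 and 2.86 in control pools, next to the filter value of 2.66. The groups overlapped. The difference of -0.06 (95% interval -0.19 to 0.07, adjusted p = 0.460) had no settled direction, since without control pool 5-6 it was 0.0037.

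**Figure D2:**
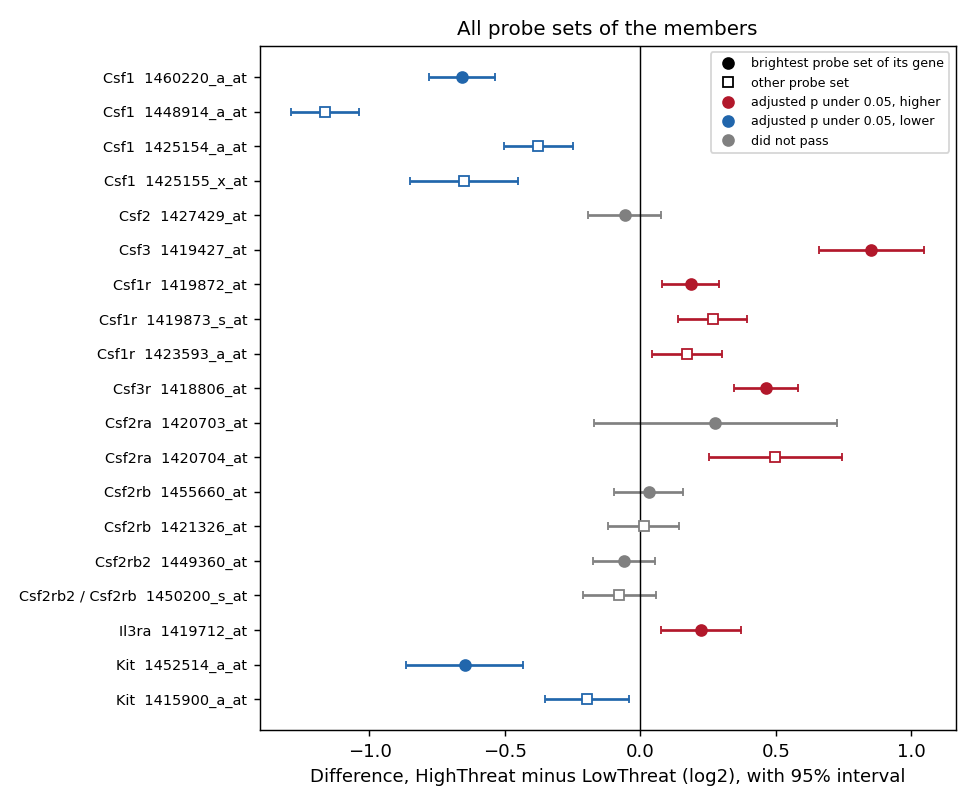
Differences of all 19 probe sets that name a member, threat animals minus control pools (log2), with 95% intervals from limma fitted on every probe set. Filled circles are the brightest probe set of each gene, open squares the others. All 4 Csf1 and both Kit probe sets lie below 0, all 3 Csf1r probe sets lie above 0, and the intervals of the 4 probe sets of the beta chains include 0.

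Csf3r, the receptor of G-CSF, was higher in threat animals. It ranged over 10.13, 10.15 and 10.29 (lowest, median and highest) in threat animals, against 9.74, 9.65 and 9.76 in control pools. The groups did not overlap. Csf3r rose by 0.46 (SE 0.053, adjusted p = 1.26e-05), a 1.38-fold difference. Marker genes of granulocytes moved in the same arrays: 9 of 11 tested markers of mature neutrophils rose and 1 fell, with a median difference of 1.04, and 6 of 6 markers of granulocyte precursors rose, with a median of 2.51. The neutrophil collagenase gene Mmp8 rose by 2.76 and Lcn2, which encodes an iron-binding granule protein, by 1.46, and the granule protease genes Prtn3 and Ctsg rose by 3.48 and 2.40. The mean of the neutrophil markers per array ran from 10.8 to 11.1 in threat animals and from 9.88 to 10.05 in control pools, and that of the precursor markers from 6.68 to 7.46 in threat animals and from 4.66 to 4.87 in control pools. Their part in the difference of Csf3r was not tested. In RNA of a mixed cell preparation, more cells of a type and more RNA per cell cannot be told apart.

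Csf1r, which marks monocytes and macrophages, was the brightest member and differed little. Its values were 11.89, 11.93 and 12.01 (lowest, median and highest) in threat animals, against 11.73, 11.82 and 11.73 in control pools. The groups were close but did not overlap. Csf1r rose by 0.19 (SE 0.048, adjusted p = 0.00651), a 1.14-fold difference, and its other probe sets by 0.27 (SE 0.058) and 0.17 (SE 0.059). In the same arrays 5 of 7 tested markers of Ly6C-high monocytes rose and 0 fell, at a median difference of 0.77, with Hp higher by 1.82 and Ifitm6 by 1.63. The 2 that did not pass, Ccr2 and Fn1, both differed by -0.13. Of 8 tested markers of Ly6C-low monocytes 3 rose and 5 fell, at a median difference of -0.32, with Pglyrp1 higher by 1.84 and Cd36 at -1.68. Of 18 tested markers of splenic macrophages 2 rose and 10 fell, at a median difference of -0.25. The 2 that rose were Adgre1 (0.69) and Slc40a1 (0.28), and among those that fell were Hpgd (-2.31) and Timd4 (-1.19). Timd4 averaged 2.79 in threat animals, close to the filter value of 2.66. The mean of the Ly6C-high markers per array was 9.77 to 9.89 in threat animals and 8.84 to 9.02 in control pools. That of the Ly6C-low markers was 8.80 to 8.89 in threat animals and 8.90 to 9.01 in control pools, and that of the macrophage markers 6.03 to 6.15 in threat animals and 6.46 to 6.60 in control pools. Whether Hp, Ifitm6 and Pglyrp1 read monocytes alone, or also the neutrophils whose markers rose, was not tested. The part of all these cells in the difference of Csf1r was not tested.

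Unequal change of members was tested within arrays. For each of 4 pairs of genes the log2 value of one was subtracted from that of the other on the same array, and the groups were compared with an exact two-sided permutation test. The 84 ways to assign 6 of 9 arrays to the threat group allow no p below 0.0119. The difference Csf3r minus Csf1r was 0.28 higher in threat animals (exact p = 0.0119, 0.0159 adjusted over the 4 pairs), so Csf3r rose by more than Csf1r. The difference Csf1 minus Csf1r, the factor against its receptor, was -3.65 ± 0.11 in threat animals and -2.81 ± 0.09 in control pools (SD, n = 6 and 3), a shift of -0.84. Csf1 was lower and Csf1r higher in every threat animal than in any control pool, which fixes this separation. The shift is thus given as a description, and its p-value has no meaning as a test. That p-value was still counted in the adjustment over the 4 pairs, which made the adjusted p of 0.0159 smaller. The exact p of 0.0119 for Csf3r minus Csf1r does not depend on it. The zero point of such a difference depends on the probes, so only its shift between groups can be read.

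The GM-CSF receptor alpha chain Csf2ra varied most. The brighter probe set, which stands for it, gave 8.86, 9.82, 9.82, 9.70, 9.66 and 9.39 in threat animals 1 to 6, against 9.09, 9.11 and 9.60 in control pools 1-2, 3-4 and 5-6. Threat animal 1 was lower than every control pool and animals 2 to 5 were higher than every one. The difference of 0.28 (95% interval -0.14 to 0.69) did not pass (adjusted p = 0.269). Without threat animal 1 it was 0.41 and passed (adjusted p = 0.0194). The SD of Csf2ra within groups was 0.35, against a median of 0.09 over all tested genes, and only 19 of the 13078 genes had a larger one.

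The dimmer Csf2ra probe set had the same arrays at its extremes but just separated the groups. It gave 6.55, 6.80, 6.97, 6.94, 6.75 and 6.67 in threat animals 1 to 6, against 6.14, 6.16 and 6.54 in control pools. Threat animal 1 was again the lowest of its group and control pool 5-6 again the highest of its own, 6.549 in threat animal 1 against 6.543 in control pool 5-6. Both probe sets were designed from 1 transcript record. Tested on its own, this probe set rose by 0.50 (SE 0.11, adjusted p = 0.00408), and the mean of both probe sets by 0.39 (adjusted p = 0.0431). The call for Csf2ra thus depends on the probe set and on threat animal 1.

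**Figure D3:**
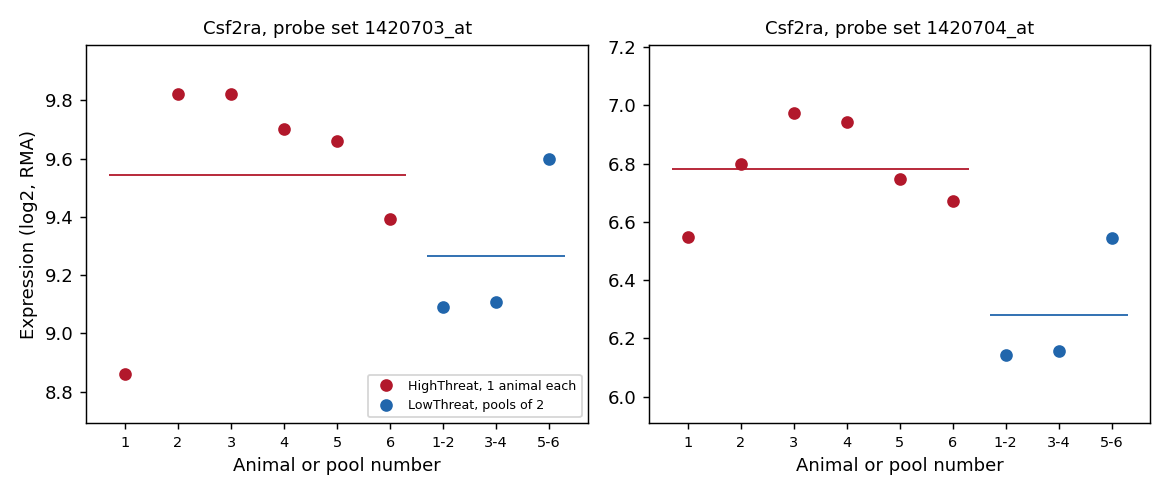
Expression (log2, RMA) of both Csf2ra probe sets on each array, threat animals 1 to 6 left of the 3 control pools, with lines at the group means. Threat animal 1 is the lowest threat value in both panels, at 8.86 and 6.55, and control pool 5-6 the highest control value, at 9.60 and 6.54.

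The beta chains differed little. Csf2rb, the beta chain shared by the GM-CSF and interleukin-3 receptors, had values of 9.54 to 9.74 with a median of 9.66 in threat animals, against 9.54, 9.65 and 9.65 in control pools. The groups overlapped almost fully. Its difference was 0.03 (95% interval -0.09 to 0.155, adjusted p = 0.684), and -0.0055 without control pool 1-2. Csf2rb2, the interleukin-3 beta chain of mice, ran from 7.73 to 7.90 with a median of 7.81 in threat animals, against 7.83, 7.90 and 7.93 in control pools, a difference of -0.06 (95% interval -0.17 to 0.05, adjusted p = 0.374). These genes are close relatives, and a further probe set names both and differed by -0.08 (95% interval -0.21 to 0.06), so that probes of one may also bind transcripts of the other and the values are uncertain as single genes.

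Within arrays, Csf2rb2 minus Csf2rb was -1.82 ± 0.03 in threat animals and -1.73 ± 0.02 in control pools (SD, n = 6 and 3). The shift of -0.09 was small, but no threat animal overlapped a control pool (exact p = 0.0119, adjusted 0.0159). The adjustment here too counted the fixed pair Csf1 minus Csf1r, which made the adjusted p smaller. The shift of Csf2rb2 minus Csf2rb also depended on the probe sets. It did not pass with the mean of each gene's probe sets (-0.08, adjusted p = 0.111). Csf2rb minus Csf2ra differed by -0.25 (exact p = 0.357, adjusted 0.357), and by -0.38 without threat animal 1 (adjusted p = 0.0357).

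Il3ra, the alpha chain of the interleukin-3 receptor, was slightly higher in threat animals. Its values were 5.06 to 5.23 with a median of 5.12 in threat animals, against 4.81, 5.06 and 4.83 in control pools. Control pool 3-4 equalled the lowest threat animals, so the groups touched. Il3ra rose by 0.22 (SE 0.065, adjusted p = 0.0129). Leaving out control pool 1-2 ended the call (0.18, adjusted p = 0.0740), as did leaving out pool 5-6 (0.19, adjusted p = 0.0623).

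Kit, the stem cell factor receptor, was lower in threat animals. Its values were 3.97, 4.28 and 4.38 (lowest, median and highest) in threat animals, against 4.87, 5.01 and 4.75 in control pools 1-2, 3-4 and 5-6. The groups did not overlap, and animals 1 and 6 were the lowest. Kit fell by 0.65 (SE 0.094, adjusted p = 9.99e-05), a 1.57-fold difference. Its dimmer probe set averaged 3.24 ± 0.11 in threat animals and 3.44 ± 0.07 in control pools and fell by 0.20 (SE 0.070, adjusted p = 0.0438). Of 6 tested markers of stem and progenitor cells 3 fell and 0 rose, at a median difference of -0.13. Flt3 and Procr were both at -0.51 and Gata2 at -0.17, while Hlf (0.0037), Slamf1 (-0.09) and Erg (0.14) did not pass. Procr, at 8.72 in threat animals and 9.22 in control pools, lay far above every other marker of this list. Flt3 is also in the list of dendritic cell markers. The mean of the list per array, over the 8 measured and including Flt3 and Procr, was 3.92 to 4.02 in threat animals and 4.11 to 4.13 in control pools. The progenitor genes Cd34 and Meis1 were under the filter. Of the mast cell and basophil markers, 5 of 9 measured were under the filter, among them the mast cell protease Cpa3 and the Fc epsilon receptor genes Fcer1a and Ms4a2. Of the others 1 rose (Hdc, 0.50) and 1 fell (Cma1, -0.31). Hdc, at 10.24 in threat animals and 9.74 in control pools, lay far above every other marker of this list. The mean of the list per array, which includes Hdc, was 3.15 to 3.26 in threat animals and 3.18 to 3.26 in control pools. The part of these cells in the difference of Kit was not tested.

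For the 3 members that differed by at least 0.5, the tested genes with the most similar profile were found from the root mean square difference between profiles over the 9 arrays, each centred on its own mean. Zfp318, at a distance of 0.040 on the log2 scale, and Traf4, at 0.052, were nearest to Csf1, with differences of -0.61 and -0.65 between groups. Rtp4, at 0.090, and Gusb, at 0.097, were nearest to Csf3, and differed by 0.79 and 0.86. Atp1b1, at 0.079, and Taf4b, at 0.091, were nearest to Kit, and differed by -0.53 and -0.65. The measure is dominated by the difference between the groups and was searched over 13077 genes, so likeness here is a description.

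Few other factors and receptors of the same families were measurable. Of 13 genes listed, 9 had a probe set of their own and 4 passed the filter. The genes of interleukin-34, the second ligand of CSF1R, of interleukins 3 and 5, of the interleukin-5 receptor alpha chain and of Pdgfra had means under the filter. Flt3, the receptor of a growth factor for dendritic cells and progenitors, fell by 0.51 (SE 0.085, adjusted p = 0.000292), between means of 5.40 in threat animals and 5.91 in control pools. Pdgfrb, a receptor tyrosine kinase of the same class as Csf1r and Kit, rose by 0.24 (SE 0.079, adjusted p = 0.0250), a call lost without control pool 3-4 or 5-6, when 0 of the list rose. Kitl, which encodes the ligand of KIT, differed by -0.04 (adjusted p = 0.747) and the erythropoietin receptor gene Epor by 0.07 (adjusted p = 0.287). Of 10 tested dendritic cell markers, a list that also holds Flt3, 9 fell and none rose.

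Genes of the JAK-STAT pathway, through which the cytokine receptors signal, moved in both directions. The 14 tested genes split into 3 that rose, 7 that fell and 4 that did not pass, and their median difference was -0.24, against 0.03 for all tested genes. Over all tested genes 23.8% rose and 22.0% fell, so 3 of 14 higher is near the background. Stat5a, a main STAT of the GM-CSF and interleukin-3 receptors, averaged 6.45 ± 0.06 in threat animals and 7.25 ± 0.03 in control pools (SD, n = 6 and 3) and fell by 0.79 (SE 0.048, adjusted p = 4.69e-08). Stat3, a main STAT of the G-CSF receptor, fell by 0.77 (SE 0.048, adjusted p = 6.03e-08), although the 4 tested Stat3 probe sets ranged from -0.77 to 0.11 and 2 of them fell. Stat5b (-0.49), Jak1 (-0.43), the STAT5-induced inhibitors Cish (-0.44) and Socs2 (-0.53) and the cytokine gene Osm (-0.39) were the other genes that fell. Only 1 of 3 Jak1 probe sets fell, and the others did not pass. Socs3, the feedback inhibitor of CSF3R signalling, rose by 0.90 (SE 0.052, adjusted p = 3.05e-08) to 10.05 ± 0.07 in threat animals, against 9.15 ± 0.02 in control pools, and all 3 of its probe sets rose. The survival genes Pim2 (0.76) and Bcl2l1 (0.58) rose too, while the survival gene Mcl1, which had the highest level here, showed a difference of -0.02 (adjusted p = 0.785) in its brightest probe set. Of 6 tested Mcl1 probe sets 4 fell, with differences between -0.27 and -0.0092.

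Adaptors, kinases and phosphatases that act near the receptors moved in both directions too. The 15 tested genes held 8 that rose and 3 that fell, and their median difference was 0.27, against 23.8% higher, 22.0% lower and a median of 0.03 over all tested genes. The 3 of 15 that fell are near the background. Pik3cg, the gamma isoform of phosphoinositide 3-kinase, rose by 1.20 (SE 0.055, adjusted p = 4.70e-09) to 8.03 ± 0.08 in threat animals, against 6.83 ± 0.05 in control pools. The tyrosine kinase gene Fes rose by 0.81 (SE 0.059) and Ptpn6, which encodes the inhibitory phosphatase SHP-1 and is the brightest of the list, by 0.70 (SE 0.043). Cbl, a ubiquitin ligase that takes activated CSF1R and KIT out of signalling, rose by 0.50 and the SRC family kinase gene Fgr by 0.57. The 3 genes that fell were those of the lipid phosphatase SHIP1, Inpp5d (-0.56), the adaptor Gab2 (-0.32) and the exchange factor Sos1 (-0.22). Both Inpp5d probe sets fell, but only 1 of 3 for Gab2 and 1 of 3 for Sos1, whose groups overlapped, and 2 genes fell under several of the alternatives.

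Transcription factors of myeloid development, several of which are known to act on these receptor genes, moved in both directions. The 18 tested genes held 4 that rose and 8 that fell, and their median difference was -0.12, but 5 fell without threat animal 3, without threat animal 5 or without control pool 1-2. Against 23.8% higher and 22.0% lower over all tested genes, 4 of 18 higher is at the background. The 8 of 18 lower of the main fit is a larger share than the background. Over the alternatives that count ran from 5 to 9, and its lowest value, 5 of 18, is near the background. No test of the list as a set was run. Spi1, which encodes PU.1, an activator of Csf1r and Csf3r, rose by 0.52 (SE 0.056, adjusted p = 7.98e-06). Cebpd rose by 1.63 (SE 0.049), Maf by 1.67 (SE 0.067) and Mitf by 0.45. Irf8, a factor of monocyte and dendritic cell development, fell by 1.70 (SE 0.067) to 6.38 ± 0.10 in threat animals, against 8.08 ± 0.09 in control pools. Klf4, a monocyte factor, fell by 1.33 (SE 0.057) and the progenitor factor Myb by 0.90. Cebpb, a C/EBP factor and the gene with the highest level here, showed a difference of 0.11 (adjusted p = 0.0706).

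**Figure D4:**
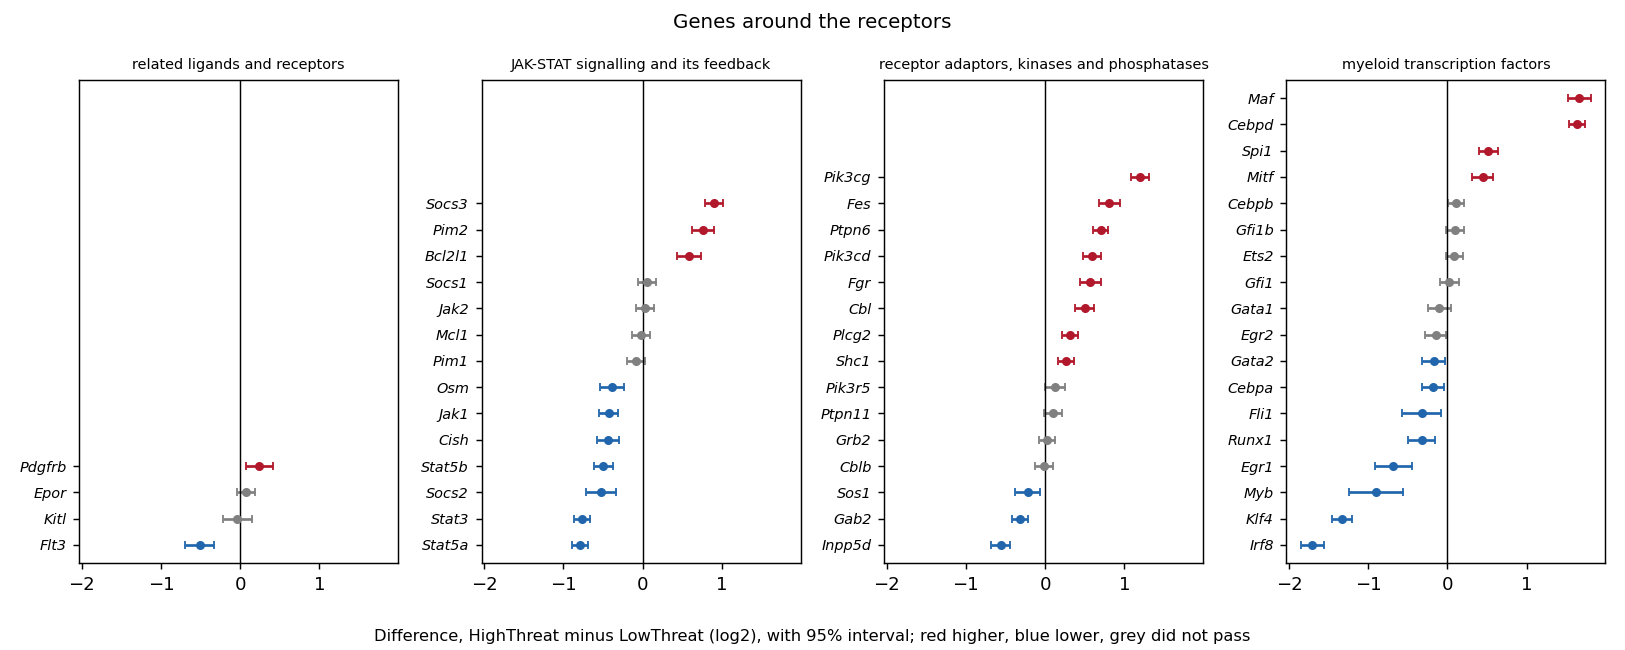
Differences of the tested genes around the receptors, threat animals minus control pools (log2), with 95% intervals, in 4 lists. Red genes were higher, blue genes lower and grey genes did not pass at an adjusted p under 0.05. In the JAK-STAT list Stat5a and Stat3 lie lowest and Socs3 highest, and in the list of adaptors, kinases and phosphatases 8 of 15 genes were higher.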

How the data were processed

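The authors deposited log2 values for each probe set on each array. The submitters' processing notes name RMA, a method that subtracts background and equalizes arrays but gives no detection call. For its version: not given in the sources used here. The values span 0.607 to 13.567, from which base 2 was inferred, and array medians lay between 3.19 and 3.22. The number of arrays limits the precision. Gene names came from GEO's platform annotation and were brought up to date by Entrez number with RefSeq (GRCm38.p6, names and promoter windows). Genes were tested if the mean of their brightest probe set reached the 40th percentile of probe sets that are not controls, 2.66, which left 13078 of 18193. Threat minus control was fitted with limma 3.58.1 in R 4.3.3 (lmFit, eBayes, two-sided), and p-values were adjusted over all tested genes. SEs are moderated. The steps were tested on simulated data. P-values set the difference between groups against the spread between arrays within groups, which mixes single animals with pools of 2.

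The members and lists were chosen with earlier results of these data known. The text names all members, the brightest gene of each pathway list and its 3 with the lowest p, the 2 with the lowest p of cell type lists set beside a member, and for members differing by at least 0.5 the 2 nearest profiles. Further called genes of the lists were named after their values were seen. Alternatives included other filters, probe set rules, scalings, limma settings, weights, averaged pairs, a block and leaving out each array. Animal and pool numbers are shared, but same-numbered deviations correlated at 0.149, -0.152 and -0.029, so they were not taken to pair the arrays.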

Additional observations from a re-analysis of the deposited data

How the results depend on the processing

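The directions and calls of Csf1, Csf3, Csf1r, Csf3r and Kit were kept under every alternative run. Of the 10 members 2 fell under every one and 3 to 5 rose. Leaving out single arrays moved the difference of Csf1 between -0.68 and -0.64, of Csf3 between 0.78 and 0.89, of Csf3r between 0.43 and 0.49, of Kit between -0.71 and -0.58, of Csf1r between 0.17 and 0.22, of Csf2ra between 0.19 and 0.44, of Il3ra between 0.18 and 0.30, of Csf2 between -0.0893 and 0.0037 and of Csf2rb between -0.0055 and 0.0529, of which Csf2 and Csf2rb, neither called, changed sign. The shift of Csf3r minus Csf1r then ran from 0.21 to 0.32, of Csf1 minus Csf1r from -0.89 to -0.81, of Csf2rb2 minus Csf2rb from -0.10 to -0.08 and of Csf2rb minus Csf2ra from -0.39 to -0.15. Csf2ra passed with the mean of its probe sets (0.39) and with its dimmer probe set on its own (0.50). Csf2rb2 minus Csf2rb did not pass with the mean of probe sets (-0.0819). With threat animals averaged in number pairs, 3 against 3, the exact test cannot go below 0.10, and the shifts of 0.28, -0.0915 and -0.84 for Csf3r minus Csf1r, Csf2rb2 minus Csf2rb and Csf1 minus Csf1r could not pass. The last is fixed by the values of both genes. With no filter, 2 of the related ligands and receptors fell. Leaving out single arrays, 0 to 1 of them rose and 5 to 7 of the myeloid transcription factors fell. Over all genes 2614 to 3372 rose and 2513 to 2983 fell over the alternatives. A replicate block by number changed no call of a member (Csf1 adjusted p = 3.78e-06) and left 3085 genes higher and 2860 lower. Dim genes such as Csf2 are limited by background, and each group difference rests on 3 control pools.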

Other observations

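The array-to-array pattern of Csf2ra was examined after its spread had been seen. Over the 9 arrays the tested genes with the nearest centred profiles were Fyco1, which encodes an adaptor of vesicle transport, at a root mean square difference of 0.156, and Gdap10, at 0.170 (log2). Fyco1 was lowest in threat animal 1, at 4.36, and in control pool 1-2, at 4.33, and its difference of 0.16 did not pass (adjusted p = 0.388). Gdap10 was 8.45 in threat animal 1, 8.31 in threat animal 6 and 8.77 to 8.97 in the others, against 8.23, 8.15 and 8.78 in control pools 1-2, 3-4 and 5-6. Like Csf2ra, both genes were lower in threat animals 1 and 6 than in animals 2 to 5 and had their highest control value in pool 5-6. Both were picked from all tested genes for their nearness to Csf2ra. A shared order of arrays thus follows from the choice and is a description only. Whether anything sets threat animals 1 and 6 and control pool 5-6 apart was not tested.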
